A study of Mus musculus with 6 samples.

Results

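The interferon regulatory factors (IRFs) are a family of transcription factors. Their RNA was measured here in donor cells sorted after bone marrow transplantation (BMT). The study names these cells hematopoietic stem and progenitor cells (HSPCs). The 8 genes described, Irf1, Irf2, Irf3, Irf4, Irf5, Irf7, Irf8 and Irf9, were taken from a list by gene symbol, and all 8 were found among the 24965 genes of the expression table. They were listed as a family and not by a threshold on these values, although earlier results of these data were known. RNA-seq had been performed on 3 WT and 3 Hemgn-/- libraries. Donors were WT littermates or mice in which Hemgn, a gene of hematopoietic cells, was disrupted in the whole body with zinc finger nucleases, both on a C57BL/6 (CD45.2) background. Mice were male and female and 8 to 10 weeks old. Their bone marrow cells were given to CD45.1 recipients irradiated with a split dose of 9 Gy, and donor cells were sorted from the recipients at 6 h post-BMT. All 6 libraries therefore come from transplanted cells, with no library from cells before BMT. The sorted population is LSK (lineage-negative, Sca-1 and c-Kit positive) in the study's methods and CD45.2+Lin-Sca-1+ in the labels, which do not mention c-Kit.

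All IRF proteins bind DNA through an N-terminal domain marked by a repeat of conserved tryptophans, which reads GAAA-containing elements such as the interferon-stimulated response element (ISRE). Irf3, Irf5 and Irf7 rest in the cytoplasm until sensors of nucleic acids and Toll-like receptors activate them through kinases, and they then switch on type I interferon and cytokine genes. Irf9 joins STAT proteins in the complex formed after type I interferon binds its receptor, Irf1 is itself induced by IFN-γ, and Irf2 binds the same elements and often opposes Irf1. Irf4 and Irf8 bind DNA weakly alone and act with ETS or AP-1 partners in lymphoid and myeloid development.

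Promoters are shown for 3 of the 4 members called higher in Hemgn-/-, picked by the call and by the letters of a STAT site in Irf1 and Irf8. That of Irf3, the other one, is not printed. Promoter windows of 300 bases, from 250 bases before a RefSeq start site to 50 after it, were found for 8 of 8 members (11 windows, GRCm38.p6). A match to TTCNNNGAA, the gamma-activated site (GAS) form read by STAT dimers, was found on either strand in 8.3% of the 32851 windows of all genes. By gene, 9.55% of 27025 held a match in at least 1 window. The 250 bases before the start are printed 5′ to 3′ on the strand of the gene, with GAS matches in capitals, at chr11:53769764-53770013 for Irf1, chr8:120736108-120736357 for Irf8 and chr6:29526375-29526624 for Irf5, all on the plus strand.
Irf1: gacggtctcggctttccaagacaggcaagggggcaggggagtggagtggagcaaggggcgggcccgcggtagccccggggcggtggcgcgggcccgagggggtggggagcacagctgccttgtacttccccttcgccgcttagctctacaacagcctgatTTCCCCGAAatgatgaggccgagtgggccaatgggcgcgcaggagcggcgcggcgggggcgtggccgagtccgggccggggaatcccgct
Irf8: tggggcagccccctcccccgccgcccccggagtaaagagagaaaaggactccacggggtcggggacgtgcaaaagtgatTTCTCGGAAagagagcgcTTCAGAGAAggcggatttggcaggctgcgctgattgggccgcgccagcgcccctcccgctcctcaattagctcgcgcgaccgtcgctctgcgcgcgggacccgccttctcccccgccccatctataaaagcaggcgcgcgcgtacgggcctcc
Irf5: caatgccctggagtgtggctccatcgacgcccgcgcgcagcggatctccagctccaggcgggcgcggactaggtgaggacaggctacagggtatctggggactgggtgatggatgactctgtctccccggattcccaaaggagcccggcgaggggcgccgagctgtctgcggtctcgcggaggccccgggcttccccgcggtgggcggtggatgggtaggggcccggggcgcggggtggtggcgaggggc
Irf1 and Irf8 have 2 windows each, of which the first is shown, and the second of each held no match. The first window of Irf1 held 1 GAS match, TTCCCCGAA, which starts 90 bases before the start site. The first Irf8 window held 2, TTCTCGGAA and TTCAGAGAA, starting 171 and 153 bases before it. Irf5, which also rose in Hemgn-/- libraries, held none in the letters shown. Outside these genes, the Irf2 window held the GAS match TTCCGAGAA at 224 bases before its start. It also held the ISRE core GAAAATGAAA (GAAANNGAAA, in 3.44% of all windows) and the ETS-IRF composite element GGAAGTGAAA (GGAANNGAAA, in 2.72% of all windows), and these last 2 matches overlap each other. None of the 3 motifs was found in the windows of Irf3, Irf4, Irf5, Irf7 or Irf9. Both Irf9 windows lie inside the gene, with start sites at 55603985 and 55604579 and the gene start at 55603571. The bases before the Irf9 gene were thus not searched. A match describes letters and is no evidence of binding.

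Expression was given by the authors as FPKM, fragments per kilobase of gene, scaled to the fragments sequenced in the library. The libraries hold 23668015 to 28897360 fragments, and the members were counted with 939 (Irf7 in WT replicate 2) to 13742 fragments (Irf8 in Hemgn-/- replicate 3). Hemgn itself was at 5.64, 2.96 and 4.68 FPKM in WT and at 0.75, 0.91 and 1.60 FPKM in Hemgn-/- libraries (log2 fold change −1.37, adjusted p = 0.0114), in the direction of the labels. The sorted gate was checked against marker genes. Of the HSPC markers, Kit was at 5.50 to 7.24 FPKM over the 6 libraries and Mecom was below 1 FPKM in every one, whereas the neutrophil granule gene Ngp was at 26488 to 46692 FPKM. Summed over 10 markers of neutrophils and their precursors, the level was 75460 to 81570 FPKM in WT and 49810 to 55060 FPKM in Hemgn-/- libraries. The libraries thus held transcripts typical of other blood cells at high levels. In such bulk libraries a different number of cells of a type and a different amount of RNA per cell cannot be told apart.

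All 8 members were expressed in both genotypes. In WT libraries the mean level in FPKM was highest for Irf9 at 65.4 ± 1.45 (SD, n = 3). Next were Irf1 at 48.9 ± 5.47 and Irf8 at 39.2 ± 0.61. Irf4 followed at 26.5 ± 3.44 FPKM, Irf5 at 18.0 ± 2.04 and Irf3 at 15.0 ± 0.84. Irf7 and Irf2 were lowest at 10.7 ± 0.87 and 9.76 ± 2.69 FPKM. The libraries of Irf5 and Irf3, and those of Irf7 and Irf2, overlapped in WT, while every other pair of neighbours in this order was separate. In Hemgn-/- libraries the order in FPKM changed at the top. Irf1 at 82.6 ± 5.67 stood above Irf9 at 74.0 ± 3.05 and Irf8 at 66.7 ± 1.89 (SD, n = 3). Irf5 at 29.4 ± 3.83 FPKM stood above Irf4 at 23.4 ± 1.46, the reverse of WT. Irf3 was at 21.1 ± 1.21 FPKM, and only Irf7 at 13.5 ± 1.93 and Irf2 at 12.6 ± 0.94 overlapped in Hemgn-/-. Parts of this order depend on the gene length used. FPKM divides by all annotated exons (7055 bases for Irf8, 3976 for Irf1), and with the length of the main transcript in its place (2847 and 2137 bases) Irf8, Irf9 and Irf1 were at 165, 162 and 154 FPKM in Hemgn-/-, with overlap between neighbours. On that scale Irf4 was lowest in Hemgn-/- at 24.1 FPKM, and the 5 members below Irf1 lay between 24.1 and 38.0 FPKM.

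**Figure D1:**
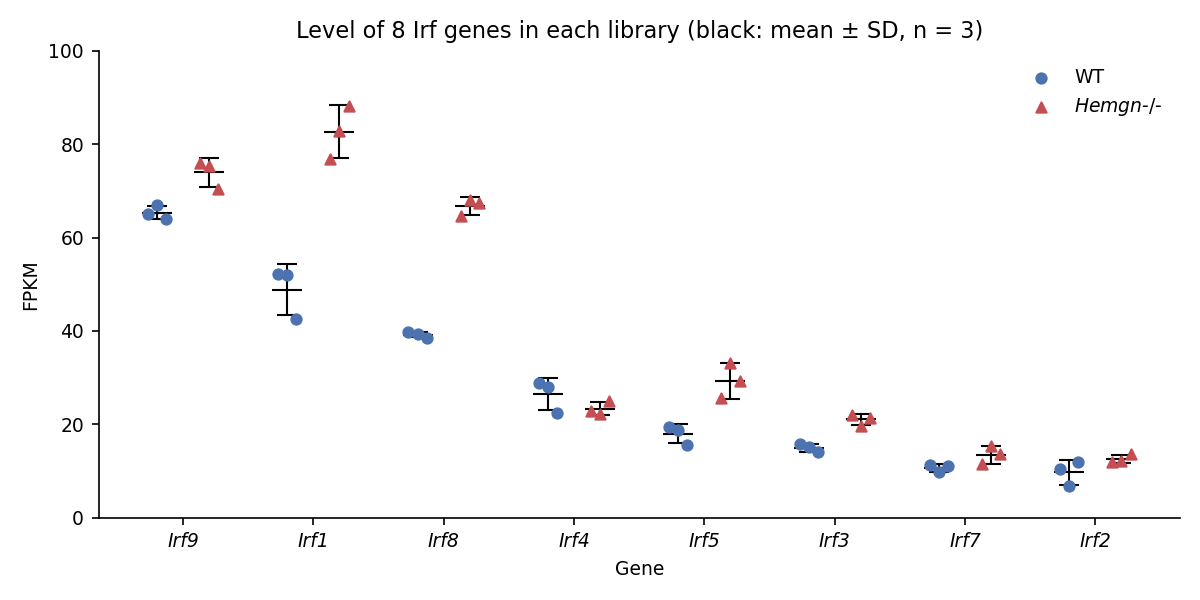
Level of each Irf gene in FPKM (vertical axis, linear from 0) in the 3 WT (circles) and 3 Hemgn-/- libraries (triangles), with the mean and SD in black. For Irf1 and Irf8 the Hemgn-/- libraries lie above all WT libraries by a wide gap, while for Irf4 and Irf2 the libraries of both genotypes overlap.

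Whether loss of Hemgn changed the family was asked by comparing Hemgn-/- with WT libraries on the log2(FPKM + 1) scale. Irf1, Irf3, Irf5 and Irf8 rose in Hemgn-/- libraries with an adjusted p under 0.05 over the 13739 genes tested, and no member fell. Among all genes tested, 4.37% (600 genes) were called higher and 2.09% (287 genes) lower by this rule. That split moved with the scaling, to 341 higher and 386 lower with median-ratio scaling and to 1062 and 238 at the same FPKM total. The libraries of the genotypes did not overlap for 6 members, all higher in Hemgn-/- (19.2% of all genes tested, with 8.18% separate in the lower direction), and overlapped for Irf2 and Irf4. At the study's thresholds of p under 0.05 and 1.5-fold, Irf1, Irf5 and Irf8 passed, against 4.1% of all genes higher and 2.74% lower. Irf5 stayed under 1.5-fold with median-ratio scaling, without WT replicate 3 and without Hemgn-/- replicate 2 (log2 fold changes of 0.57, 0.58 and 0.58). The median log2 fold change of the 8 members was 0.42, beside 0.087 for all genes tested. All 8 passed the filter on low values, and each was above 1 FPKM in every library of both genotypes.

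Irf8 (ENSMUSG00000041515, chr8:120736358-120756694, plus strand, GRCm38), which directs monocyte and dendritic cell development and restrains granulocyte production, had the smallest p of the family. It was at 39.7, 39.4 and 38.5 FPKM in WT and at 64.6, 68.1 and 67.4 FPKM in Hemgn-/- replicates 1, 2 and 3. The replicates of each genotype lay close together, and the lowest Hemgn-/- library stood far above the highest WT library. The log2 fold change was 0.75 (SE 0.068, 95% interval 0.60 to 0.91, adjusted p = 0.000657), a ratio of mean FPKM of 1.70. With any 1 library left out it stayed between 0.74 and 0.77 and past the threshold.

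Irf1 (ENSMUSG00000018899, chr11:53770014-53778374, plus strand, GRCm38), the IFN-γ-induced activator of antigen presentation and GTPase genes, was at 52.1, 52.0 and 42.6 FPKM in WT libraries. In Hemgn-/- libraries it was at 76.9, 82.7 and 88.3 FPKM. WT replicate 3 was the lowest of its group, and the groups stayed apart without it. Its log2 fold change was 0.75, with a wider error than that of Irf8 (SE 0.099, adjusted p = 0.00384). The value ran from 0.65 to 0.80 with 1 library left out, each time past the threshold. Gm17334, on the opposite strand, shares 135 exon bases with Irf1 and was at 3.54 to 3.70 FPKM in WT and 5.22 to 6.56 FPKM in Hemgn-/-, and reads from both strands cannot be told apart without strand.

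Irf5 (ENSMUSG00000029771, chr6:29526625-29541871, plus strand, GRCm38), which acts below Toll-like receptors and Myd88 and drives inflammatory cytokine genes in myeloid and B cells, was at 19.5, 18.8 and 15.7 FPKM in WT. Hemgn-/- libraries had 25.6, 33.2 and 29.3 FPKM. The groups were separate, with a range over Hemgn-/- libraries that was wider than the gap between the groups. The log2 fold change was 0.67 (SE 0.12, adjusted p = 0.0148). The call was lost without Hemgn-/- replicate 2 (log2 fold change 0.58, adjusted p = 0.0513) or without Hemgn-/- replicate 3 (0.67, adjusted p = 0.0653). It was also lost with eBayes without a trend (0.0627) and with no filter on low values (0.0543). Tnpo3, on the opposite strand, shares 411 exon bases with Irf5 and was at 4.30 to 6.71 FPKM over all libraries.

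Irf3 (ENSMUSG00000003184, chr7:44997648-45002848, plus strand, GRCm38), the constitutive factor that Tbk1 phosphorylates to start type I interferon production, was at 15.7, 15.2 and 14.1 FPKM in WT and at 22.0, 19.7 and 21.4 FPKM in Hemgn-/- libraries. No library of one group reached the other. Its log2 fold change was 0.46 (SE 0.091, adjusted p = 0.0210), under 1.5-fold. This call was the least stable of the 4. It was lost without WT replicate 1 (adjusted p = 0.0529), WT replicate 3 (0.0713), Hemgn-/- replicate 1 (0.0606) or Hemgn-/- replicate 3 (0.0907), and with median-ratio scaling (0.0574), quantile normalization (0.0544), eBayes without a trend (0.0708) or the replicate number as a block (0.0506). Its log2 fold change nevertheless stayed between 0.36 and 0.55 over all alternatives.

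The other 4 members did not pass the test over all genes. Irf9 (ENSMUSG00000002325, chr14:55603571-55610030, plus strand, GRCm38), the DNA-binding subunit of its complex with STAT proteins, was at 65.1, 66.9 and 64.0 FPKM in WT and at 76.0, 75.4 and 70.5 FPKM in Hemgn-/-. The groups were separate by a small step, with a log2 fold change of 0.18 (95% interval 0.02 to 0.33, adjusted p = 0.182). It was 0.07 with median-ratio scaling (adjusted p = 0.627) and 0.26 at the same FPKM total (0.0530). Rnf31 shares 123 exon bases with it on the same strand and was at 12.8 to 27.6 FPKM. Irf7 (ENSMUSG00000025498, chr7:141262706-141266481, minus strand, GRCm38), the interferon-inducible amplifier of type I interferon genes, was at 11.3, 9.72 and 11.2 FPKM in WT and at 11.4, 15.3 and 13.8 FPKM in Hemgn-/-. Hemgn-/- replicate 1 lay next to the highest WT library, and the log2 fold change was 0.30 (95% interval 0.02 to 0.58, adjusted p = 0.203). Irf2 (ENSMUSG00000031627, chr8:46739732-46847458, plus strand, GRCm38) was at 10.4, 6.79 and 12.0 FPKM in WT and at 12.0, 12.1 and 13.7 FPKM in Hemgn-/-. WT replicate 2 was low, and the log2 fold change of 0.37 (adjusted p = 0.282) dropped to 0.15 without it.

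Irf4 (ENSMUSG00000021356, chr13:30749226-30766976, plus strand, GRCm38), a factor of lymphocyte activation and plasma cells, was the only member with a lower mean in Hemgn-/- libraries. Its values were 28.8, 28.0 and 22.5 FPKM in WT and 22.8, 22.3 and 25.1 FPKM in Hemgn-/- libraries. WT replicate 3 fell among the Hemgn-/- libraries, so the groups overlapped. The log2 fold change was −0.16 with a 95% interval from −0.42 to 0.09 (adjusted p = 0.445), and it kept its sign over all 15 alternatives (−0.27 to −0.08).

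**Figure D2:**
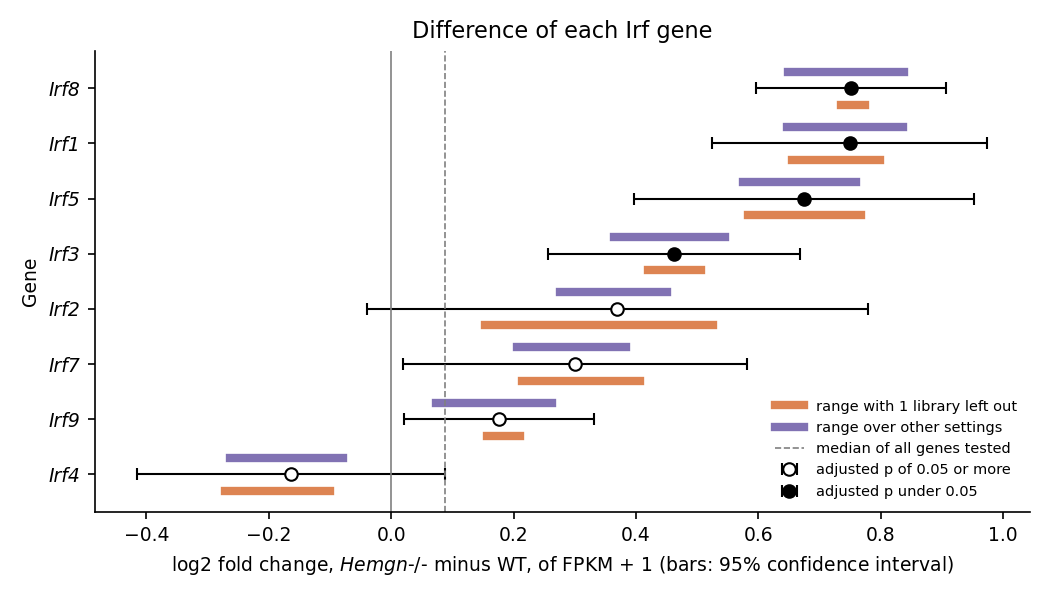
Log2 fold change of each Irf gene, Hemgn-/- minus WT on the log2(FPKM + 1) scale, with its 95% confidence interval (black bars, filled circles for an adjusted p under 0.05). Thick lines give the range with 1 library left out (below) and over the other settings (above), and none of them crosses 0 for any member.

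Since the members changed by different amounts, the makeup of the family total differed between genotypes. The 8 genes summed to 243, 237 and 221 FPKM in WT and to 311, 329 and 329 FPKM in Hemgn-/- libraries. Irf1 took 20.9 ± 1.41% of that sum in WT and 25.6 ± 1.10% in Hemgn-/- (SD, n = 3). The share of Irf8 was 16.8 ± 0.58% and 20.6 ± 0.15%. Irf9 had the largest share in WT at 28.0 ± 1.12% and had 22.9 ± 1.51% in Hemgn-/-, and the share of Irf4 was 11.3 ± 0.96% and 7.24 ± 0.42%. Irf5 had 7.69 ± 0.51% and 9.07 ± 0.96%. These shares did not overlap between the genotypes, whereas those of Irf2, Irf3 and Irf7 did. The gap was narrow for Irf5, at most 8.04% in WT and at least 8.21% in Hemgn-/-. The shares of a library are parts of the same total, so a rise of the members called higher lowers the shares of the rest. Irf9 was at 64.0 to 66.9 FPKM in WT and at 70.5 to 76.0 FPKM in Hemgn-/-, although its share was lower there. A separation of shares is thus no evidence beyond the calls. All shares rest on the exon lengths that FPKM uses, and they were not tested. Irf8 and Irf4, which can pair with the same ETS factors, had an FPKM ratio of 1.38 to 1.71 in WT and 2.69 to 3.06 in Hemgn-/- libraries. The ratio of Irf5 to Irf4 was 0.67 to 0.70 in WT and 1.12 to 1.49 in Hemgn-/-, so that Irf5 passed Irf4 in each Hemgn-/- library. For Irf1 to Irf9 it was 0.66 to 0.80 in WT and 1.01 to 1.25 in Hemgn-/-. The ratio of Irf1 to Irf2, an activator and its antagonist, was 3.53 to 7.65 in WT and 6.41 to 6.81 in Hemgn-/-, and these overlapped. That of Irf3 to Irf7 was 1.26 to 1.57 in WT and 1.29 to 1.93 in Hemgn-/-, also with overlap. Each of these ratios divides a member called higher by one that was not, so a separation is no evidence beyond those calls. Ratios within a library do not depend on the scaling between libraries, and they were not tested.

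**Figure D3:**
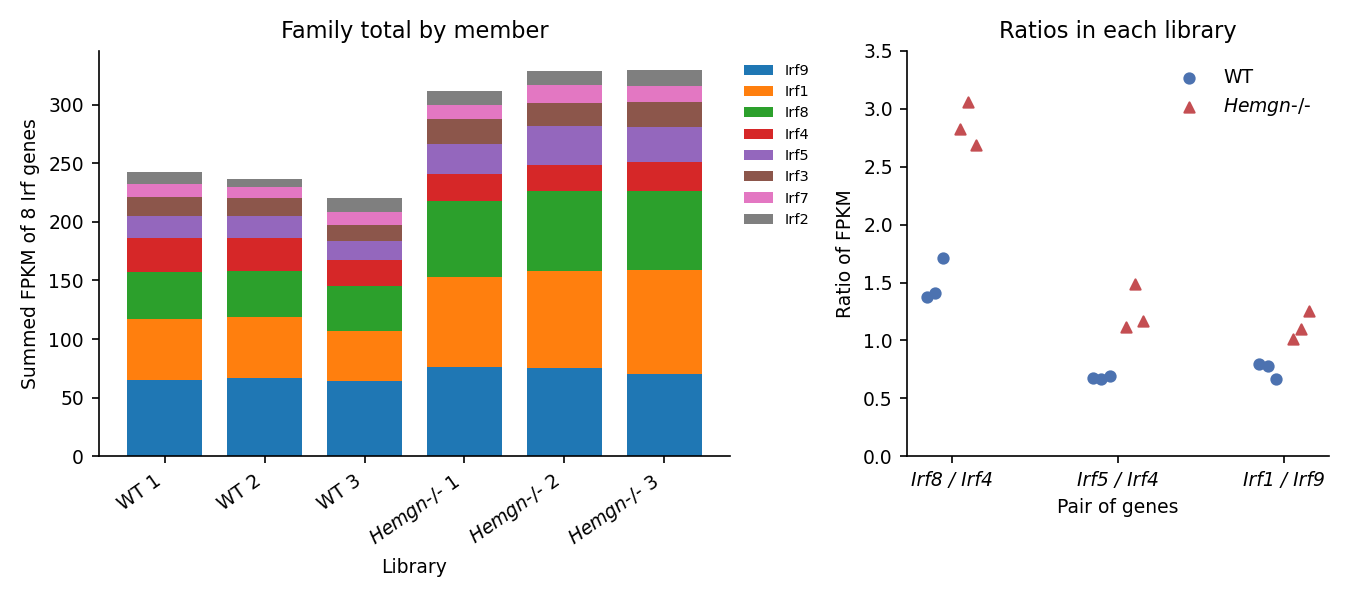
Left, summed FPKM of the 8 Irf genes in each library, stacked by gene from 0. Right, ratios of FPKM within each library for 3 pairs of members, in WT (circles) and Hemgn-/- (triangles). Each divides a member called higher by one not called. The Irf8 to Irf4 ratio is 1.38 to 1.71 in WT and 2.69 to 3.06 in Hemgn-/-.

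Genes that act before the IRFs were read next. Of 18 interferon ligand genes 4 were in the table, and only Ifng passed the filter, at 3.10, 2.47 and 2.01 FPKM in WT and 3.71, 3.30 and 3.69 FPKM in Hemgn-/- libraries. The groups were separate by a narrow gap, and the difference did not pass (log2 fold change 0.38, adjusted p = 0.193). Ifnk, the ligand of keratinocytes, was below 1 FPKM in all libraries. Of the 10 receptor, JAK and STAT genes, 2 rose and none fell (median log2 fold change 0.27). The receptor chains Ifngr2 and Ifnar1 both had a log2 fold change of 0.45 (adjusted p = 0.0158 and 0.0331), and neither call was made without WT replicate 3 or without Hemgn-/- replicate 3. The count was 1 without WT replicate 1 or without Hemgn-/- replicate 1. Over the other settings it ran from 0 with eBayes without a trend to 6 at the same FPKM total. Stat2, the partner of Irf9, was at 15.0, 13.9 and 17.0 FPKM in WT and 26.2, 17.8 and 18.4 FPKM in Hemgn-/- (log2 fold change 0.40, adjusted p = 0.170).

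Of 26 sensors, adaptors and kinases that activate Irf3, Irf5 and Irf7, 24 were tested, 4 rose and 1 fell, with a median log2 fold change of 0.18. The risers were Zbp1, a nucleic acid sensor (0.55, adjusted p = 0.0112), Ddx58, the RNA sensor RIG-I (0.47, adjusted p = 0.0133), the Toll-like receptor adaptor Myd88 (0.41, adjusted p = 0.0191), and Unc93b1, which brings endosomal Toll-like receptors to their place (0.29, adjusted p = 0.0333; named after its value was seen). Without WT replicate 3 the number of risers was 1, and without Hemgn-/- replicate 3 it was 0. Over the other settings it ran from 0 with eBayes without a trend to 7 at the same FPKM total, with 2 under median-ratio scaling. Cgas, the DNA sensor, was lower at 2.38, 2.92 and 2.50 FPKM in WT and 1.07, 1.11 and 1.52 FPKM in Hemgn-/- (−0.69, adjusted p = 0.0415), and that call was lost with any 1 library left out. Tbk1, the kinase of Irf3 and Irf7, was at 30.8 to 35.3 FPKM in WT and 32.2 to 39.1 FPKM in Hemgn-/-, with overlap (0.12, adjusted p = 0.534).

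Among the 9 DNA-binding partners and corepressors, 7 were tested, 1 rose and 1 fell. The ETS factors that pair with Irf4 and Irf8 went in opposite directions. Spib, the ETS partner of B cells and plasmacytoid dendritic cells, was at 146, 160 and 130 FPKM in WT and 217, 251 and 227 FPKM in Hemgn-/- libraries. It rose by a log2 fold change of 0.67 (adjusted p = 0.00432) and passed in 15 of 15 alternatives. Spi1, the gene of PU.1, was at 179, 335 and 220 FPKM in WT and 150, 115 and 91.8 FPKM in Hemgn-/-. The groups were separate, with WT replicate 2 far above the rest, and the log2 fold change was −1.01 (adjusted p = 0.0399). Without that library it was −0.76 (adjusted p = 0.0627), and the call was also lost without WT replicate 3, Hemgn-/- replicate 2 or Hemgn-/- replicate 3. Batf, the AP-1 partner of Irf4 and Irf8, was at 2.61 to 5.06 FPKM in WT and 2.80 to 5.22 FPKM in Hemgn-/-, with a log2 fold change of 0.07 (adjusted p = 0.899).

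**Figure D4:**
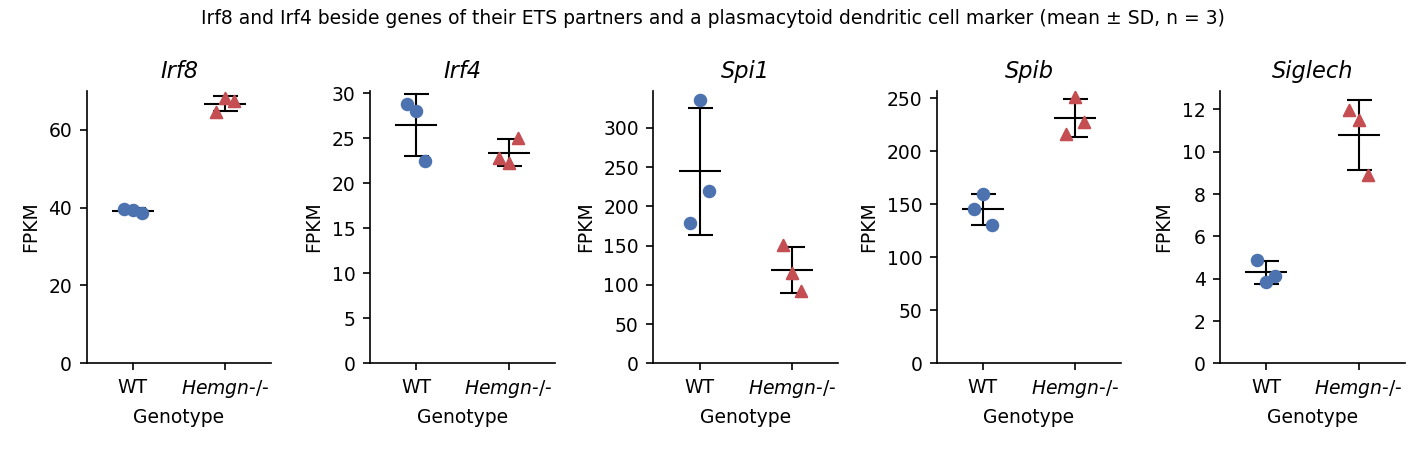
FPKM of Irf8, Irf4, their ETS partner genes Spi1 and Spib, and Siglech, a marker of plasmacytoid dendritic cells, in each library (points) with mean and SD (n = 3, vertical axes from 0). Irf8, Spib and Siglech are higher and Spi1 is lower in Hemgn-/-, with no overlap, and Irf4 overlaps.

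Of 14 negative regulators of interferon and IRF signaling, 5 rose and none fell (median log2 fold change 0.23). Socs3, an inhibitor of JAK signaling, had the largest rise (0.83, adjusted p = 0.000663), followed by Usp18, which removes Isg15 from proteins and blocks the type I receptor (0.69, adjusted p = 0.0123), Trim30a (0.65, adjusted p = 0.00158) and Rbck1 (0.43, adjusted p = 0.0252). The fifth was the phosphatase gene Ptpn6 (0.39, adjusted p = 0.00737; named after its value was seen). The count was 3 without Hemgn-/- replicate 3, and Rbck1 passed in 1 of 6 fits with a library left out. Trim21 (named after its value was seen) did not pass with all libraries (−1.19, adjusted p = 0.0680). It was at 2.43, 0.68 and 2.93 FPKM in WT and 0.17 to 0.30 FPKM in Hemgn-/-, and passed the filter through WT only. It was called lower without WT replicate 2 (−1.56, adjusted p = 0.0110), with a pseudocount of 0.1 (0.0474) and with voom on fragments (0.0331).

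Genes linked to the Irf9 complex, to Irf1 and to Irf8 were read as separate lists. IRFs share GAAA-containing elements, so genes of a list may also be targets of other IRFs, which was not tested. Of 23 genes listed as ISRE targets of the Irf9 complex, all were tested, 12 rose and none fell. Their median log2 fold change was 0.49, and binding to these genes was not measured. The point estimate was higher in Hemgn-/- for 23 of 23, as for 63% of all genes tested. Among those that rose were Mx1, an antiviral GTPase (0.98, adjusted p = 0.0112), the oligoadenylate synthetase family genes Oasl1 (0.82, adjusted p = 0.00236) and Oas3 (0.70, adjusted p = 0.00315), and Ifi44 (0.81, adjusted p = 0.0290). Irf9 itself had a log2 fold change of 0.18. The number of risers was 7 to 11 with 1 library left out, lowest without Hemgn-/- replicate 3, and 5 to 18 over the other settings. Ifi44 passed in 1 of 6 fits with a library left out.

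Of 19 immune genes associated with Irf1, 17 were tested, 7 rose and 1 fell (median log2 fold change 0.40). Cxcl10, a chemokine, was at 5.42, 7.51 and 6.65 FPKM in WT and 15.4, 20.2 and 17.9 FPKM in Hemgn-/- (1.32, adjusted p = 0.00158). Gbp2, an interferon-inducible GTPase, rose by 1.10 (adjusted p = 0.000263), Ciita, the master activator of MHC class II genes, by 0.88 (adjusted p = 0.00289) and Gbp3 by 0.69 (adjusted p = 0.0125). Vcam1, an adhesion molecule, fell (−0.66, adjusted p = 0.00940; named after its value was seen). Leaving out 1 library gave 5 to 7 risers.

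Of 14 mononuclear phagocyte genes associated with Irf8, 13 were tested, 2 rose and 1 fell, with a median log2 fold change of 0.34. Csf1r, the receptor of macrophage colony-stimulating factor, was at 22.7, 21.5 and 24.2 FPKM in WT and 33.5, 29.7 and 34.9 FPKM in Hemgn-/- (0.50, adjusted p = 0.0161). Ctss, a lysosomal protease, rose by 0.36 (adjusted p = 0.0205). Cybb, a subunit of the phagocyte oxidase, fell by 0.40 on the log2 scale (adjusted p = 0.00531) in 6 of 6 fits with 1 library left out. No gene of this list was called higher without Hemgn-/- replicate 3, and 1 was without WT replicate 1, without WT replicate 3 or without Hemgn-/- replicate 2.

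**Figure D5:**
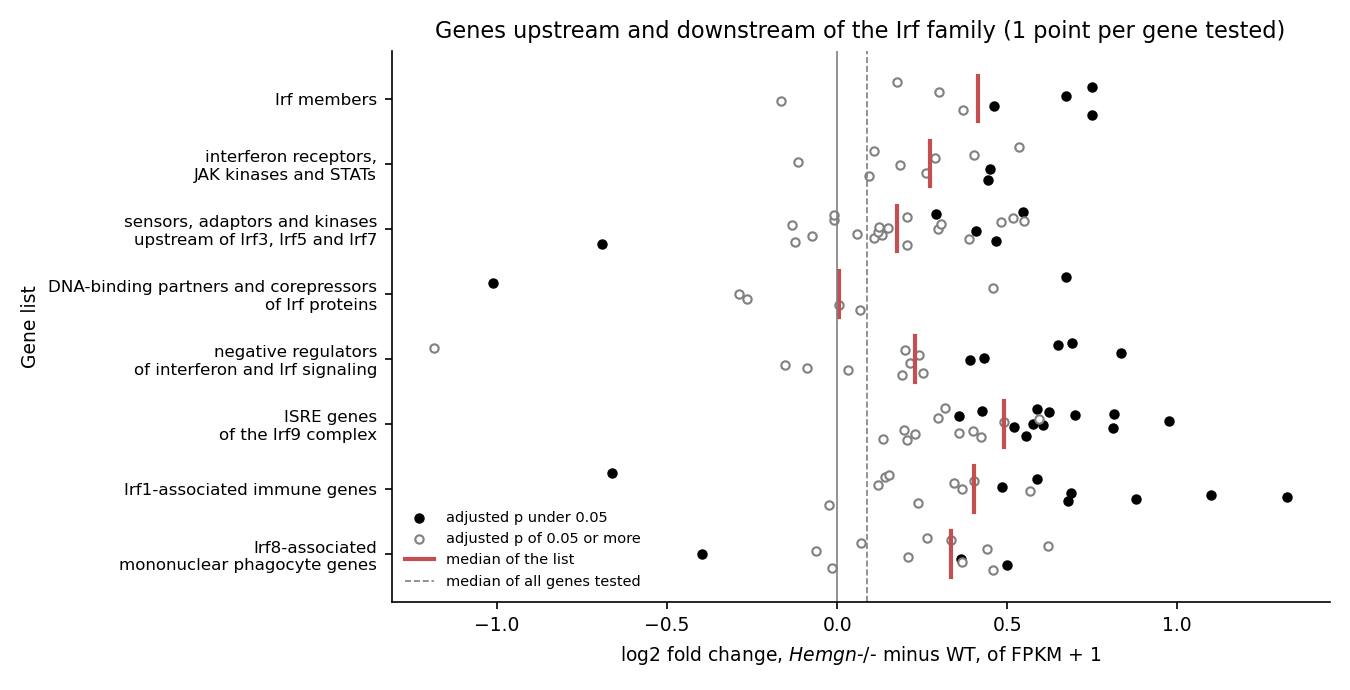
Log2 fold change, Hemgn-/- minus WT on the log2(FPKM + 1) scale, of every gene tested in each list, with filled points for an adjusted p under 0.05. Red bars give the list median (0.42 for the Irf members, 0.49 for the ISRE genes) and the dashed line the median of all genes tested, 0.087.

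Several of these genes also mark other blood cells, whose markers differed between the genotypes. Plasmacytoid dendritic cells express much Irf8 and Irf7. Of 9 markers of these cells 4 rose and none fell, and their summed level was 236.5 to 246.4 FPKM in WT and 318 to 362 FPKM in Hemgn-/-. That sum is mostly Spib, which B cells also express, with means of 145 and 232 FPKM, and Ly6d, with means of 81.7 and 84.2 FPKM and no call. Siglech was at 4.90, 3.86 and 4.14 FPKM in WT and 12.0, 11.5 and 8.88 FPKM in Hemgn-/- (1.15, adjusted p = 0.00280). Klk1 (1.27, adjusted p = 0.0350), Spib and Pacsin1 (0.66, adjusted p = 0.0350) were the others. Conventional dendritic cell markers were near 0, with 3.69 to 5.09 FPKM in sum in WT and 4.92 to 6.41 FPKM in Hemgn-/-, Xcr1 and Zbtb46 below 1 FPKM in all libraries, and none of 3 tested genes called. Itgax (0.44, adjusted p = 0.159) and Cd209a (−0.02, adjusted p = 0.963) were the most abundant of these. Of 10 monocyte and macrophage markers 3 rose, among them the chemokine receptor Ccr2 (1.00, adjusted p = 0.00140) and Adgre1 (0.51, adjusted p = 0.0343), and Lyz2 fell (−0.37, adjusted p = 0.0454). The sum of that list, made up mostly of Lyz2, was 22940 to 25630 FPKM in WT and 16520 to 20640 FPKM in Hemgn-/-.

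In the lymphoid lists, 3 of 9 B cell markers rose and none fell, with a summed level of 1292 to 1339 FPKM in WT and 1510 to 1671 FPKM in Hemgn-/-. Ms4a1, the gene of CD20, had the largest rise (0.64, adjusted p = 0.00168), and Cd79b also rose (0.27, adjusted p = 0.0368). Plasma cells use Irf4, and 2 of 6 plasma cell markers fell and none rose, with sums of 782 to 913 FPKM in WT and 471 to 494 FPKM in Hemgn-/-. These were the immunoglobulin joining chain gene Jchain (−1.12, adjusted p = 0.000149) and Tnfrsf17 (−1.08, adjusted p = 0.0146). Tnfrsf17 was at 1.76 to 1.86 FPKM in WT and 0.22 to 0.52 FPKM in Hemgn-/-, so it passed the filter through WT only. Of 8 T and NK cell markers 2 rose, Cd3d (1.28, adjusted p = 0.000409) and Ncr1 (0.59, adjusted p = 0.00764), with sums of 107 to 117 and 125 to 147 FPKM.

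Markers of granulocytes and red cells were also read. Of 10 markers of neutrophils and their precursors 6 fell and none rose, while 2 had a higher point estimate in Hemgn-/-. Log2 fold changes were −1.27 for Cebpe, −0.92 for Camp, −0.73 for Elane and −0.73 for Ngp (adjusted p = 0.000364, 0.00257, 0.00148 and 0.000131). Of 10 erythroid markers 9 were tested and 4 fell, the globin genes Hba-a1 (−4.01), Hbb-bs (−3.90) and Hba-a2 (−1.66) and the heme synthesis gene Alas2 (−3.32). The sum of all 10 was 494 to 578 FPKM in WT and 65.0 to 88.7 FPKM in Hemgn-/-. Hba-a2 was at 1.87 to 2.79 FPKM in WT and at no more than 0.27 FPKM in Hemgn-/-, so it passed the filter through WT only. Of 10 HSPC markers 9 were tested and 2 rose, Cd34 (0.45, adjusted p = 0.0427) and Cd48 (0.48, adjusted p = 0.0331), with sums of 34.9 to 41.0 and 46.2 to 55.1 FPKM. Neither call held with any 1 library left out. Among the markers named here, the calls of Pacsin1, Adgre1, Lyz2 and Cd79b were also lost with any 1 library left out, and those of Klk1 and Tnfrsf17 held in 2 of 6 such fits. Quantile normalization, which sets the most abundant genes equal between libraries, removed the differences of Ngp and Lyz2. The part of these markers in the differences of Irf1, Irf3, Irf5 and Irf8 was not tested.

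The genes whose levels followed the most abundant members best over the 6 libraries were named by Pearson's r of log2(FPKM + 1), among 6293 genes with a mean of at least 5 FPKM. For Irf8 they were Rps3a2 (r = 0.9998), Tap1 (0.9997) and Cnpy3 (0.9992). Rps3a2 was at no more than 2.32 FPKM in WT and 157 to 227 FPKM in Hemgn-/-, a difference far larger than that of Irf8, and it has a near-identical copy with which reads may be shared. Tap1, the peptide transporter of antigen presentation, was at 36.6, 36.0 and 35.4 FPKM in WT and 53.6, 55.4 and 54.9 FPKM in Hemgn-/-. Irf1 was followed by Lrpprc (0.9969), Mxd1 (0.9965) and Nfkb2 (0.9947), and Irf9 by Paics (0.9859) and Cirbp (0.9846). With 2 groups of 3 libraries, such values mostly follow genotype. An r above 0.9 was reached by 646 genes for Irf8, by 582 for Irf1 and by 300 for Irf9.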

How the data were processed

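Donor cells were sorted at 6 h post-BMT and sequenced by the authors in 3 WT and 3 Hemgn-/- libraries, grouped here by the genotype in the labels. The labels and the study's methods differ on the gate, the injection route and the library kit (TruSeq or Smart-Seq2). The methods speak of biological replicates, while the labels do not say whether these were separate donors. If they were not, p-values measure only the spread between these samples. The authors deposited FPKM values of 24965 genes, 1 column per library (0 columns were left unmapped). The submitters' processing notes list GRCm38, Bowtie2 2.2.3, HISAT2 2.1.0, TopHat2 and HTSeq 0.6.0 without their roles. Use of strand in counting is not given in the sources used here.

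Ensembl identifiers were matched to GENCODE M21 on GRCm38 (24921 matched, 44 did not). Low FPKM values are steps of whole fragments, from which depth was recovered: of 13472 genes with at most 100 fragments, 95.7% were whole within 0.05 fragments in all libraries. Fragments of amplified cDNA are not independent molecules. The 13739 genes that exceeded an FPKM of 1 in any library were compared as log2(FPKM + 1), a scale that understates changes of low genes, with limma 3.58.1 in R 4.3.3 (eBayes with a trend, no covariate, two-sided). The Benjamini-Hochberg adjustment ran over all of them. An exact permutation test of 3 against 3 libraries cannot give a two-sided p below 0.1. Python 3.11.15 with pandas 2.3.3 and matplotlib 3.10.9 did the rest.

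The members, the pathway and marker lists and the tests were chosen with earlier results of these data known. Of each list, genes with an adjusted p under 0.05 and among the 4 largest log2 fold changes by size were named, or the 2 most abundant where none passed. Hemgn, Ifng, Stat2, Spi1, Batf and Tbk1 were named in any case, as were the 3 genes with the highest r for each of the 3 most abundant members. Some genes that this rule names are not reported here. Cgas was found through its older symbol. Promoters are from RefSeq.

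The alternatives were another pseudocount (0.1), other filters on low values, 3 scalings, a block for the replicate number, eBayes without a trend, voom on the recovered fragments, and leaving out each library. The counts of the pathway lists under these alternatives, and levels by main transcript length, were added after seeing the data.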

Additional observations from a re-analysis of the deposited data

How the results depend on the processing

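No member changed direction under any of the 15 alternatives. Irf1 and Irf8 passed an adjusted p of 0.05 in all 15, with adjusted p from 0.000523 to 0.0351 and from 3.64e-05 to 0.0148, and Irf2, Irf4, Irf7 and Irf9 passed in none. The number of members called higher was 4, and it was 2 with eBayes without a trend and 2 to 4 with 1 library left out (2 without Hemgn-/- replicate 3). With eBayes without a trend, the log2 fold change of Irf3 was 0.46 (adjusted p = 0.0708) and that of Irf5 was 0.67 (0.0627). Irf5 also missed the threshold with no filter on low values (0.67, 0.0543). Irf3 missed it with median-ratio scaling (0.36, 0.0574) and quantile normalization (0.38, 0.0544). With 1 library left out, Irf3 ran from 0.42 to 0.51 and Irf5 from 0.58 to 0.77. The cause was not tested.

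Same-numbered libraries showed no shared deviation over all genes, with r of −0.043, −0.009 and 0.011. With 3 libraries per group, this cannot settle whether they were paired. With the replicate number as a block, the log2 fold change of Irf3 was 0.46 (adjusted p = 0.0506), 3 members were called, and 410 genes were higher and 226 lower, against 600 and 287 without the block.

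Over all genes, the counts higher and lower were 341 and 386 with median-ratio scaling, 368 and 346 with quantile normalization, 1062 and 238 at the same FPKM total, 237 and 153 with eBayes without a trend, 309 and 157 with no filter, 734 and 331 with voom on fragments, and 223 and 150 without Hemgn-/- replicate 3. Among all genes tested, the median log2 difference ran from 0.007 to 0.157 over these scalings. Each member had at least 939 fragments in each library, and the intervals come from the spread between 3 replicates.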
